A study of Mus musculus with 6 samples.

Results

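The genes described here are the ligands, receptors and secreted antagonists of the TGF-beta superfamily. The list holds 45 mouse genes chosen by name, and a gene was taken into the analysis where a row of the array was annotated with its symbol alone. This gave 43 genes of 19938 tested, each with a single row, while Gdf1 and Gdf15 are not analysed here. They were measured in whole pancreata dissected from mouse embryos at E13.5, as 3 control pools (labelled wild type) and 3 mutant pools (labelled beta-catenin activated). A pool combined 3 pancreata and was hybridized to its own array (Affymetrix Mouse Gene 1.0 ST). In the Pdx1-Cre; Ctnnb1 tm1Mmt/+ embryos of the mutant pools, Cre made under the Pdx1 promoter removes exon 3 of the floxed Ctnnb1 allele, which leaves a β-catenin that is not degraded. Cre acts in the pancreatic epithelium, whereas the dissected organ also contains mesenchyme, vessels and nerves, and the study describes epithelial cells that escaped recombination. Whether the control embryos carried Cre or the floxed allele alone is not stated in the sources used here. Where nothing else is said, array values are the authors' deposited log2 values, a change is the mean of the mutant pools minus that of the control pools on the log2 scale, and a gene is called higher or lower at an adjusted p under 0.05 from limma (n = 3 pools per genotype, Benjamini-Hochberg adjustment over all genes tested). Array values depend on the probes of each row, so levels of different genes were not compared.

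Ligands of this superfamily are secreted dimers that bring together type I and type II serine/threonine kinase receptors on the cell surface. TGF-beta, activin and Nodal ligands act mainly through Smad2 and Smad3, and most BMP and GDF ligands of the BMP branch through Smad1, Smad5 and Smad9, in both cases with Smad4. Extracellular antagonists such as noggin, gremlin and follistatin bind ligands and keep them from their receptors. In the embryonic foregut, BMP, activin and TGF-beta signals pass between epithelium and mesenchyme and are known to affect patterning of the gut tube, the boundary between pancreas and stomach or duodenum, and the balance of endocrine and exocrine cells.

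β-catenin acts in the nucleus as the partner of TCF/LEF factors, so the sequence before the start of each called gene was searched for the TCF/LEF core. The letters searched were CAAAG with an A or a T at each of the 2 positions before it, on both strands, in the 250 bases before each start in RefSeq (GRCm38.p6). Of the 20 called genes, 15 had such a window, and 4 of them held a core (Inhba, Tgfb2, Bmpr1b and Inha), beside 16.8% of all 27025 genes with a window. The windows of the 2 genes with the greatest increase among the 43, Inhba at chr13:16011601-16011850 (+ strand) and Bmp4 at chr14:46390670-46390919 (- strand), are shown with those of Tgfb2 at chr1:186705990-186706239 (- strand) and Inha at chr1:75507359-75507608 (+ strand), so that a gene that rose without a core and a gene that fell with one stand beside them. Each is written 5′ to 3′ on the strand of its gene, with the core in capitals.
Inhba: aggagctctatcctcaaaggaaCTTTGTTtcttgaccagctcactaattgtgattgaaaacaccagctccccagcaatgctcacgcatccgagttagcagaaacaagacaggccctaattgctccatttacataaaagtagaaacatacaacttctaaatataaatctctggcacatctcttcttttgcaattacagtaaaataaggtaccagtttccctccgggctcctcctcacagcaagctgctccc
Bmp4: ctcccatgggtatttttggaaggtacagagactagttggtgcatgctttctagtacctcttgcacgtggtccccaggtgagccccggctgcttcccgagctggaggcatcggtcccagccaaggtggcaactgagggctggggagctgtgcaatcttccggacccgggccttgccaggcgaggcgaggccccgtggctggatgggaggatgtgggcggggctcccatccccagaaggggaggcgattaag
Tgfb2: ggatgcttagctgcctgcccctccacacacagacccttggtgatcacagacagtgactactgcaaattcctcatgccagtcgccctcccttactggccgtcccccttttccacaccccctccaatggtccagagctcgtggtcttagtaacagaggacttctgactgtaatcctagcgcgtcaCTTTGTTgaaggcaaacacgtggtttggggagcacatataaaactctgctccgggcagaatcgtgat
Inha: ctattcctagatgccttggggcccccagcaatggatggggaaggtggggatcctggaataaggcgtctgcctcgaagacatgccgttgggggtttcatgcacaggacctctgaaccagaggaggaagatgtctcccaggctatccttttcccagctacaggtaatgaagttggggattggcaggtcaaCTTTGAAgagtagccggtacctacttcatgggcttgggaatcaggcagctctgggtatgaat
The core began 228 bases before the start of Inhba, 67 before that of Tgfb2 and 62 before that of Inha, and the window of Bmp4 held none. In all 3 the capitals are the core of the opposite strand. Of the 43 genes, 31 had a window and 8 of these held a core. Neither the Gli core GGTGGTC nor the forkhead core TAAACA, read on both strands, was found in the windows of the 15 called genes, where 2.34% and 12% of all 32851 windows held them. A match describes the letters alone, and a window without a match says nothing about a factor.

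Ligands and antagonists of the superfamily were higher in the mutant pools more often than lower. Of the 43 genes, 15 were called higher and 5 lower, and 23 missed the threshold. Across all genes tested 14.1% were called, 6.59% higher and 7.53% lower, while 46.5% of the 43 were called. The 43 genes were chosen with earlier results of these data known, so this contrast is a description only. The median absolute change was 0.39 over the 43 genes and 0.13 over all genes, and the median signed change was 0.10 and 0.03. Among 23 ligands 9 rose and 3 fell, among 10 receptors and coreceptors 1 rose and 1 fell, and among the other 10 genes, which are antagonists, latent TGF-beta binding proteins and a protease, 5 rose and 1 fell. The 6 called genes that changed at least 2-fold all rose: Inhba, Bmp4, Fst, Bmp5, Grem1 and Tgfb3. In 24 of the 43 genes the mutant pools did not overlap the control pools, a share of 55.8% where 30.9% of all genes tested did the same. Mutant pools lay above in 17 of them and below in 7, or 39.5% and 16.3% of the 43, beside 16.9% and 13.9% of all genes. All 20 called genes and 4 that did not pass (Tgfbr1, Acvr1, Tgfbr3 and Ltbp1) belong to these 24.

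**Figure D1:**
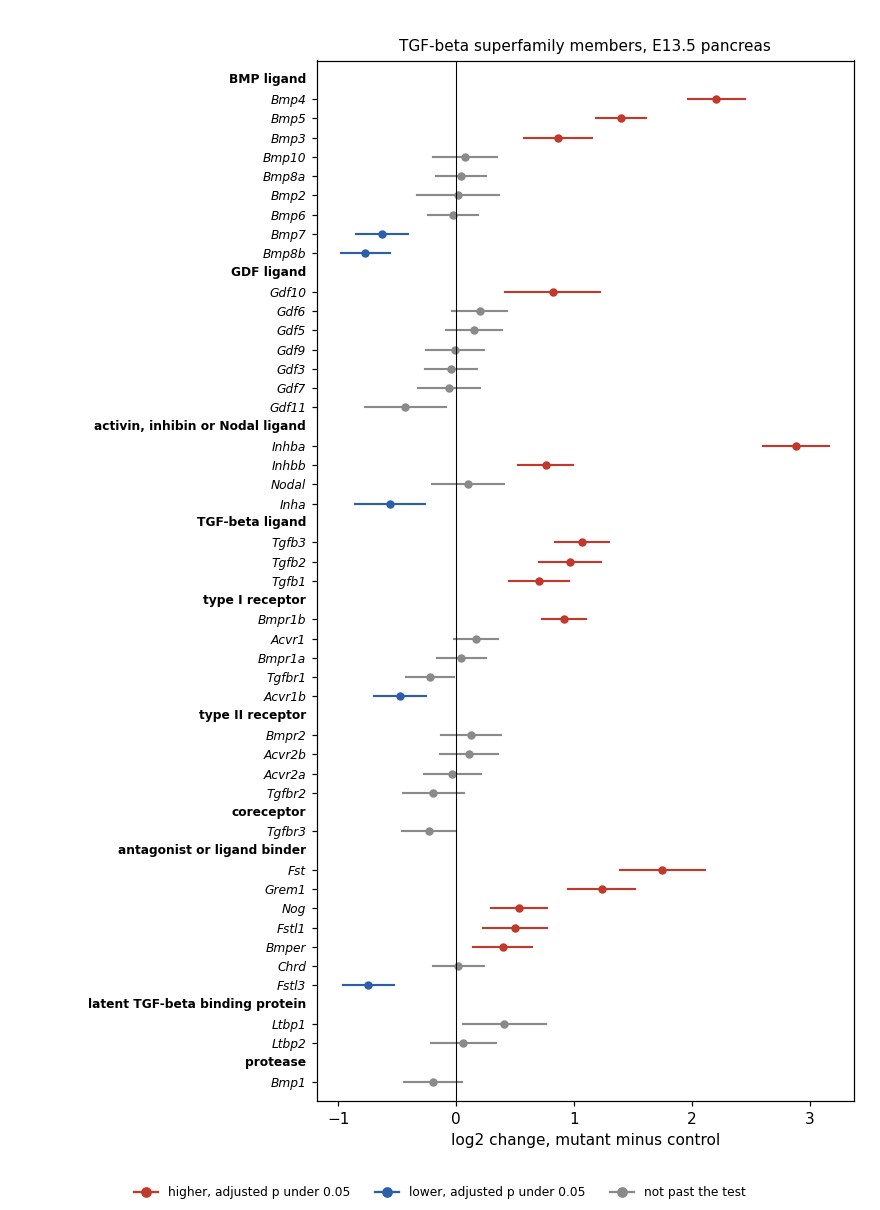
Log2 change (mutant minus control, horizontal axis) of the 43 genes of the TGF-beta superfamily, grouped by role on the vertical axis and ordered by change within each role. Points are changes and bars their 95% confidence intervals from limma (3 pools per genotype), red and blue marking the 15 genes called higher and the 5 called lower and grey the 23 not past the test; Inhba at 2.88 and Bmp4 at 2.20 lie farthest to the right, and all type II receptors are grey.

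RNA of markers for several cell types of the dissected organ differed between the pools. For comparison, 6.59% of all genes tested were called higher and 7.53% lower. All 7 general epithelial markers measured were lower, with a mean array value of 10.48 to 10.63 in control pools and 9.49 to 9.67 in mutant pools, and 6 of 7 pancreatic epithelial markers were lower (10.25 to 10.51 and 7.50 to 7.67). All 5 gut mesenchyme markers were higher (7.35 to 7.43 and 9.47 to 9.85), as were 5 of 7 smooth muscle markers with 1 lower (7.18 to 7.35 and 8.03 to 8.23). General mesenchymal markers were higher in 3 of 8 and lower in none (10.12 to 10.33 and 10.31 to 10.45), endothelial markers higher in 1 of 7, and none of 7 leukocyte markers was called. All 5 neural and glial markers measured (7.53 to 7.65 and 6.21 to 6.32) and 4 of 5 mesothelial markers (8.16 to 8.34 and 7.54 to 7.86) were lower, and of 6 erythroid markers 1 was higher and 1 lower. Krt19, which was lower, is counted among both the general epithelial and the mesothelial markers. No marker was at 0, the lowest value of any marker being 5.16 (log2). In whole organs a change in the number of cells of a type and a change in RNA per cell cannot be told apart, and the part of these shifts in the changes below was not tested.

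Bmp4, a BMP ligand that gut mesenchyme makes and that signals through BMP type I receptors, was 4.61-fold higher in the mutant pools. Its array values were 9.37, 9.19 and 9.41 across controls and 11.59, 11.36 and 11.63 across mutants (change 2.20, standard error 0.11, adjusted p = 9.38e-07 from limma). The lowest mutant pool lay 1.95 above the highest control pool. Bmp5, a ligand close to Bmp6 and Bmp7 in sequence, had values of 6.80, 6.96 and 7.03 across controls and 8.31, 8.37 and 8.31 across mutants, a 2.63-fold rise (change 1.39, standard error 0.09, adjusted p = 7.18e-06). Bmp3, an unusual family member that opposes other BMPs, read 5.97, 5.71 and 5.77 across controls and 6.94, 6.49 and 6.62 across mutants, and rose 1.82-fold (change 0.86, standard error 0.13, adjusted p = 0.00132). In each of these 3 genes every mutant pool was above every control pool.

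Another pair of BMP ligands fell. Bmp7, which epithelia of many organs express, had values of 10.70, 10.70 and 10.72 across controls and 10.23, 9.96 and 10.04 across mutants, a 1.55-fold decrease (change -0.63, standard error 0.10, adjusted p = 0.00164 from limma). Its control pools differed by less than any other BMP ligand's, with an SD of 0.01, and its mutant pools had an SD of 0.14. Bmp8b, a ligand with roles in germ cells and brown fat, read 7.21, 7.05 and 7.13 across controls and 6.39, 6.40 and 6.29 across mutants, and fell 1.70-fold (change -0.77, standard error 0.09, adjusted p = 0.000317). Bmp8b and Bmp8a are near-identical neighbours whose probes may not tell them apart fully, and Bmp8a had a change of 0.04 (standard error 0.09, adjusted p = 0.851). The 4 BMP ligands that did not pass, Bmp2, Bmp6, Bmp8a and Bmp10, had changes from -0.03 to 0.08, with 95% intervals that all lay between -0.33 and 0.36. Bmp2, which shares its receptors with Bmp4, was among them, at a change of 0.01 (standard error 0.15, adjusted p = 0.971), and its pools overlapped. Bmp10 had means of 3.67 across controls and 3.75 across mutants, below the array medians (6.37 to 6.47). Whether Bmp10 was expressed was not tested.

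Activin genes gave the greatest change of the 43. Inhba encodes the βA chain, which forms activin A as a homodimer and inhibin A with the α chain, and it rose 7.37-fold. Its array values were 5.84, 5.96 and 6.01 across controls and 9.00, 8.55 and 8.90 across mutants (change 2.88, 95% confidence interval 2.60 to 3.16, standard error 0.13, adjusted p = 5.11e-07 from limma). The gap between the nearest control and mutant pools was 2.54, against a spread of 0.45 among the mutant pools. Control values of Inhba lay below the array medians (6.37 to 6.47), and whether it was expressed in the control pools was not tested. Inhbb, which encodes the βB chain of activin B, had values of 6.10, 6.07 and 5.93 across controls and 6.80, 6.65 and 6.93 across mutants, a 1.69-fold rise (change 0.76, standard error 0.10, adjusted p = 0.000773). Inha, the α chain that turns a β chain into an inhibin, an activin antagonist, went the other way. It read 7.86, 8.13 and 7.60 across controls and 7.25, 7.27 and 7.38 across mutants, 1.48-fold lower (change -0.56, standard error 0.13, adjusted p = 0.0172). The Inha call was lost without control replicate 1 (change -0.56, adjusted p = 0.0575) or without mutant replicate 1 (change -0.54, adjusted p = 0.0688). Nodal, the ligand of early embryonic patterning, had a change of 0.10 (standard error 0.14, adjusted p = 0.741), with overlapping pools.

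All 3 TGF-beta ligands rose. Tgfb1, made by many cells of blood, vessels and stroma, had values of 8.71, 8.38 and 8.75 across controls and 9.29, 9.36 and 9.29 across mutants (change 0.70, standard error 0.11, adjusted p = 0.00213 from limma). Tgfb2 read 8.64, 8.48 and 8.47 across controls and 9.45, 9.72 and 9.32 across mutants (change 0.97, standard error 0.12, adjusted p = 0.000365). Tgfb3 read 8.45, 8.39 and 8.67 across controls and 9.54, 9.62 and 9.56 across mutants (change 1.07, standard error 0.10, adjusted p = 6.87e-05). The folds were 1.62, 1.96 and 2.09, their 95% intervals overlapped one another (changes of 0.45 to 0.95, 0.70 to 1.23 and 0.84 to 1.29), and whether the isoforms differ in their change was not tested. No mutant pool of any isoform overlapped a control pool. The latent TGF-beta binding protein Ltbp1, which anchors latent TGF-beta in the matrix, had values of 8.56, 8.15 and 8.84 across controls and 8.88, 9.02 and 8.88 across mutants (change 0.41, standard error 0.16, adjusted p = 0.13), and passed without control replicate 3 (change 0.57, adjusted p = 0.0315). Ltbp2, a matrix protein of the same family that does not carry latent TGF-beta, had a change of 0.06 (standard error 0.12, adjusted p = 0.83).

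**Figure D2:**
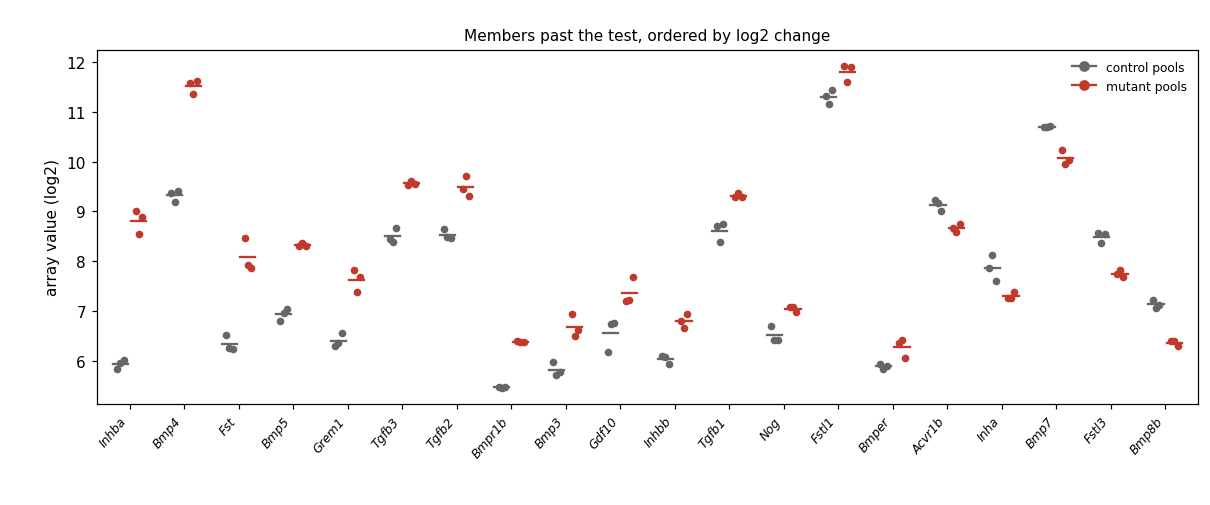
Array values (vertical axis, log2) for the 20 called genes of the superfamily, ordered from the largest rise at the left to the largest fall at the right. Each point is 1 pool of 3 E13.5 pancreata, and horizontal bars are the mean of each genotype (control grey, mutant red, 3 pools each); in none of the 20 genes do the pools of the genotypes overlap.

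Among the growth and differentiation factors 1 of 7 measured was called, or 14.3%, which is near the 14.1% called over all genes. Gdf10, also known as Bmp3b and close to Bmp3, had values of 6.18, 6.73 and 6.75 across controls and 7.20, 7.22 and 7.69 across mutants, a 1.76-fold rise (change 0.82, standard error 0.18, adjusted p = 0.0123 from limma). Its standard error is the largest of the 43 genes, and with all rows of the array in the test its adjusted p was 0.0732. Gdf11, which in the pancreas is known to restrain the number of endocrine progenitors, read 8.86, 8.22 and 8.58 across controls and 8.18, 8.22 and 7.96 across mutants (change -0.43, standard error 0.15, adjusted p = 0.103). Control replicate 2 of Gdf11 lay at the level of the mutant pools, and without it the change was -0.60 (adjusted p = 0.0158). The 6 factors that did not pass, Gdf3, Gdf5, Gdf6, Gdf7, Gdf9 and Gdf11, had changes between -0.43 and 0.20.

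Of the 10 receptors and coreceptors 2 were called, or 20%, a share near the 14.1% called over all genes. Among the 5 type I receptors, Bmpr1b, a BMP receptor that binds GDF5 and BMPs, rose, and Acvr1b, the activin receptor also called ALK4, fell. Bmpr1b had array values of 5.47, 5.45 and 5.47 across controls and 6.39, 6.38 and 6.36 across mutants, a 1.88-fold rise (change 0.91, standard error 0.08, adjusted p = 5.41e-05 from limma). The pools of each genotype lay within 0.02 to 0.03 of one another. Acvr1b read 9.23, 9.18 and 9.01 across controls and 8.66, 8.59 and 8.74 across mutants, and fell 1.39-fold (change -0.48, standard error 0.10, adjusted p = 0.00818). Bmpr1a, another BMP type I receptor, had values of 10.74, 10.88 and 10.82 across controls and 10.85, 10.77 and 10.96 across mutants (change 0.04, 95% interval -0.17 to 0.25, adjusted p = 0.841).

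None of the 4 type II receptors passed the test, and the pools of the genotypes overlapped in all 4. Bmpr2, the type II receptor of BMPs, read 11.18, 10.96 and 11.07 across controls and 11.27, 11.33 and 10.99 across mutants (change 0.12, 95% interval -0.13 to 0.38, adjusted p = 0.575 from limma). Tgfbr2, the type II receptor of TGF-beta, read 9.27, 9.07 and 9.37 across controls and 9.17, 8.87 and 9.09 across mutants (change -0.20, 95% interval -0.45 to 0.06, adjusted p = 0.348). The activin type II receptors Acvr2a and Acvr2b had changes of -0.03 and 0.11 (adjusted p = 0.892 and 0.626). Tgfbr3, or betaglycan, the coreceptor that presents TGF-beta2 and inhibin, read 9.31, 9.04 and 9.29 across controls and 8.98, 9.03 and 8.93 across mutants (change -0.23, standard error 0.10, adjusted p = 0.192). Over the 8 receptors that did not pass, changes ran from -0.23 to 0.17 and every 95% interval lay between -0.46 and 0.38. The intervals of Tgfbr1 (-0.43 to -0.02) and Tgfbr3 (-0.46 to -0.002) lay below 0 before adjustment for the number of genes tested. Pools of Tgfbr1, Acvr1 and Tgfbr3 did not overlap between genotypes, with gaps of 0.10, 0.14 and 0.01, but the 3 genes were not called. Such separation was found in 5 of the 10 receptors and coreceptors, and in 30.9% of all genes tested.

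**Figure D3:**
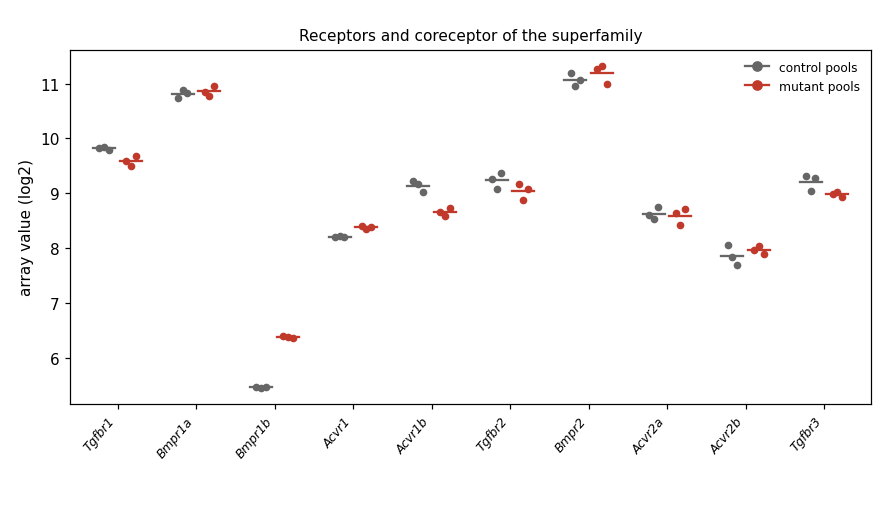
Array values (vertical axis, log2) for the 9 receptors and the coreceptor Tgfbr3 in E13.5 pancreata. Points are single pools and horizontal bars the mean of each genotype (control grey, mutant red, 3 pools each). The mean of Bmpr1b is set apart upward by 0.91 and that of Acvr1b downward by 0.48. In the other 8 genes the mean of the mutant pools lies within 0.23 of the control mean, while single pools can lie farther away.

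Antagonists moved in both directions, with 5 of 7 higher and 1 lower (71.4% and 14.3%), beside 6.59% and 7.53% of all genes. Fst, or follistatin, which binds activin nearly irreversibly, had values of 6.52, 6.25 and 6.24 across controls and 8.47, 7.92 and 7.86 across mutants, a 3.36-fold rise (change 1.75, standard error 0.16, adjusted p = 6.04e-05 from limma). Grem1, or gremlin, an antagonist of BMP2 and BMP4 made by gut mesenchyme, read 6.29, 6.35 and 6.55 across controls and 7.81, 7.39 and 7.68 across mutants, and rose 2.35-fold (change 1.23, standard error 0.13, adjusted p = 0.000125). Nog, or noggin, which also sequesters BMPs, read 6.70, 6.41 and 6.41 across controls and 7.07, 7.08 and 6.97 across mutants, and rose 1.44-fold (change 0.53, standard error 0.11, adjusted p = 0.00774). Every mutant pool was above every control pool for Fst, Grem1 and Nog. Fstl3, a follistatin relative that binds activin and myostatin, fell. It read 8.56, 8.36 and 8.55 across controls and 7.73, 7.82 and 7.68 across mutants, 1.68-fold lower (change -0.75, standard error 0.10, adjusted p = 0.000549). Chrd, or chordin, which holds BMPs until a protease cleaves it, had a change of 0.02 (standard error 0.10, adjusted p = 0.941), and its pools overlapped.

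The smallest calls among the antagonists were those of Fstl1 and Bmper. Fstl1, a secreted glycoprotein of mesenchyme that binds BMP4, had array values of 11.32, 11.17 and 11.45 across controls and 11.93, 11.60 and 11.90 across mutants (1.41-fold, change 0.50, standard error 0.12, adjusted p = 0.02 from limma). It lost its call when control replicate 1, control replicate 2, mutant replicate 1 or mutant replicate 3 was left out, with changes of 0.50, 0.43, 0.44 and 0.45 and adjusted p = 0.0616, 0.0673, 0.0934 and 0.0717. Bmper, which binds BMPs and can act for or against them, read 5.93, 5.83 and 5.88 across controls and 6.34, 6.42 and 6.05 across mutants (1.31-fold, change 0.39, standard error 0.11, adjusted p = 0.0436). Its call was lost on leaving out any of the controls, mutant replicate 1 or mutant replicate 2 (changes from 0.32 to 0.42, adjusted p from 0.0941 to 0.161), and with arrays centred on housekeeping genes (change 0.35, adjusted p = 0.105). Bmp1, which despite its name is a metalloprotease that cleaves chordin and procollagens, read 10.97, 10.86 and 10.64 across controls and 10.69, 10.52 and 10.68 across mutants (change -0.19, standard error 0.11, adjusted p = 0.32).

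Beyond the 43 genes, 70 further genes of the pathway were measured of 74 symbols listed, and 21 were called higher and 6 lower, while 43 missed the threshold. The symbols Ctgf and Ccn2, both listed, name the same gene, which was measured as Ccn2. The share called was 38.6%, beside 14.1% of all genes. These lists were chosen with earlier results of these data known, so the contrast is a description only. None of the 8 other ligands, among them Lefty1, Lefty2 and Mstn, was called. These 3 had means of 5.24, 4.36 and 4.25 across controls, below the array medians (6.37 to 6.47). Whether they were expressed was not tested. Among 17 other antagonists and ligand binders 3 rose and 3 fell, or 17.6% each, beside 6.59% and 7.53% of all genes. Cer1, the secreted inhibitor Cerberus that binds BMPs and Nodal, had array values of 7.75, 8.21 and 7.84 across controls and 5.05, 5.48 and 4.96 across mutants, a 6.83-fold decrease (change -2.77, standard error 0.16, adjusted p = 2.69e-06 from limma). Its mutant pools lay at least 2.27 below the control pools, and it fell where Fst and Grem1 rose. The mutant values of Cer1 also lay below the array medians, and its expression in those pools was not tested. Fstl4 (change 1.62, standard error 0.16) and Sostdc1, an antagonist of BMP and Wnt signals (1.32, standard error 0.12), rose, and Fstl5 fell (-0.85, standard error 0.15). The other called antagonists, named after their values were seen, were Chrdl1, a chordin relative, which rose (0.65, standard error 0.09), and Nbl1, a relative of Cerberus, which fell (-0.67, standard error 0.10). Of 12 other receptors and coreceptors 3 were called, or 25%, beside 14.1% of all genes. Acvrl1, a receptor of endothelium also called ALK1, rose (0.70, standard error 0.09), as did Lrrc32, which docks latent TGF-beta on cells (0.64, standard error 0.13). Rgma, a BMP coreceptor, fell (-0.30, standard error 0.08, adjusted p = 0.0382) and lost its call without any 1 of the 6 pools (changes from -0.32 to -0.30, adjusted p from 0.0511 to 0.148).

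Of the 8 Smads, 3 rose, or 37.5%, and none fell, where 6.59% of all genes were called higher and 7.53% lower. The 3 Smads were Smad9, a BMP Smad (change 1.25, standard error 0.11, adjusted p = 4.85e-05 from limma), and the inhibitory Smad7 (0.77, standard error 0.15, adjusted p = 0.00523) and Smad6 (0.59, standard error 0.10, adjusted p = 0.00236), which the pathway itself induces. Smad9 read 6.41, 6.48 and 6.42 across controls and 7.74, 7.47 and 7.85 across mutants. Smad1, Smad2, Smad3, Smad4 and Smad5 had changes of 0.25, 0.13, -0.17, 0.07 and -0.25 and did not pass. Smad5 passed with quantile normalization (change -0.28, adjusted p = 0.0484), when only genes above the median level were tested (change -0.25, adjusted p = 0.0496) and with array weights (change -0.28, adjusted p = 0.00984), and Smad1 passed with array weights (change 0.26, adjusted p = 0.0263). Among 10 Smad regulators 3 rose, or 30%, and none fell. Tgif1, a repressor of Smad2 and Smad3 activity, was at 0.86 (standard error 0.12) and Skil, which encodes the Smad repressor SnoN, at 0.60 (standard error 0.11). Fkbp1a, a binder of type I receptors, was at 0.35 (standard error 0.10, adjusted p = 0.0454). The Fkbp1a call was lost on leaving out control replicate 1, control replicate 3 or any of the mutants (changes from 0.30 to 0.38, adjusted p from 0.0815 to 0.17).

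Of 15 target genes measured, 10 rose (66.7%), 2 fell (13.3%) and 3 did not pass, beside 6.59% higher and 7.53% lower over all genes. Their median change was 0.61 beside 0.03 over all genes. The list was chosen with earlier results of these data known, so this contrast is a description and no test of the list. The largest rises were those of Msx1, a homeobox gene induced by BMPs (change 1.70, standard error 0.12), Id3 (1.48, standard error 0.16) and Id4 (1.18, standard error 0.11), inhibitors of bHLH factors induced by BMPs, and Tagln (1.14, standard error 0.10), a smooth muscle gene that TGF-beta induces and that is also among the smooth muscle markers above. Msx1 read 6.43, 6.22 and 6.16 across controls and 8.06, 7.79 and 8.07 across mutants. The 2 that fell, named after their values were seen, were the matrix genes Col1a1 (-0.45, standard error 0.11) and Tgfbi (-0.42, standard error 0.12), both of which TGF-beta is known to induce. Col1a1 had an adjusted p of 0.0188 from limma and lost its call without control replicate 1, control replicate 3 or mutant replicate 3 (changes from -0.44 to -0.39, adjusted p from 0.0642 to 0.0836). Tgfbi had an adjusted p of 0.0492 and kept its call with 1 pool left out in a single case, without control replicate 2, the other changes running from -0.48 to -0.35 (adjusted p from 0.0605 to 0.18). The 3 target genes that did not pass, also named after their values were seen, were Id2, Atoh8 and Ccn2, with changes of 0.30, 0.26 and 0.09. Genes of the BMP and of the TGF-beta branch were thus among those that rose. Many of these genes are also controlled by other pathways and differ in level between cell types, and the part of the epithelial and mesenchymal markers given above was not tested.

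**Figure D4:**
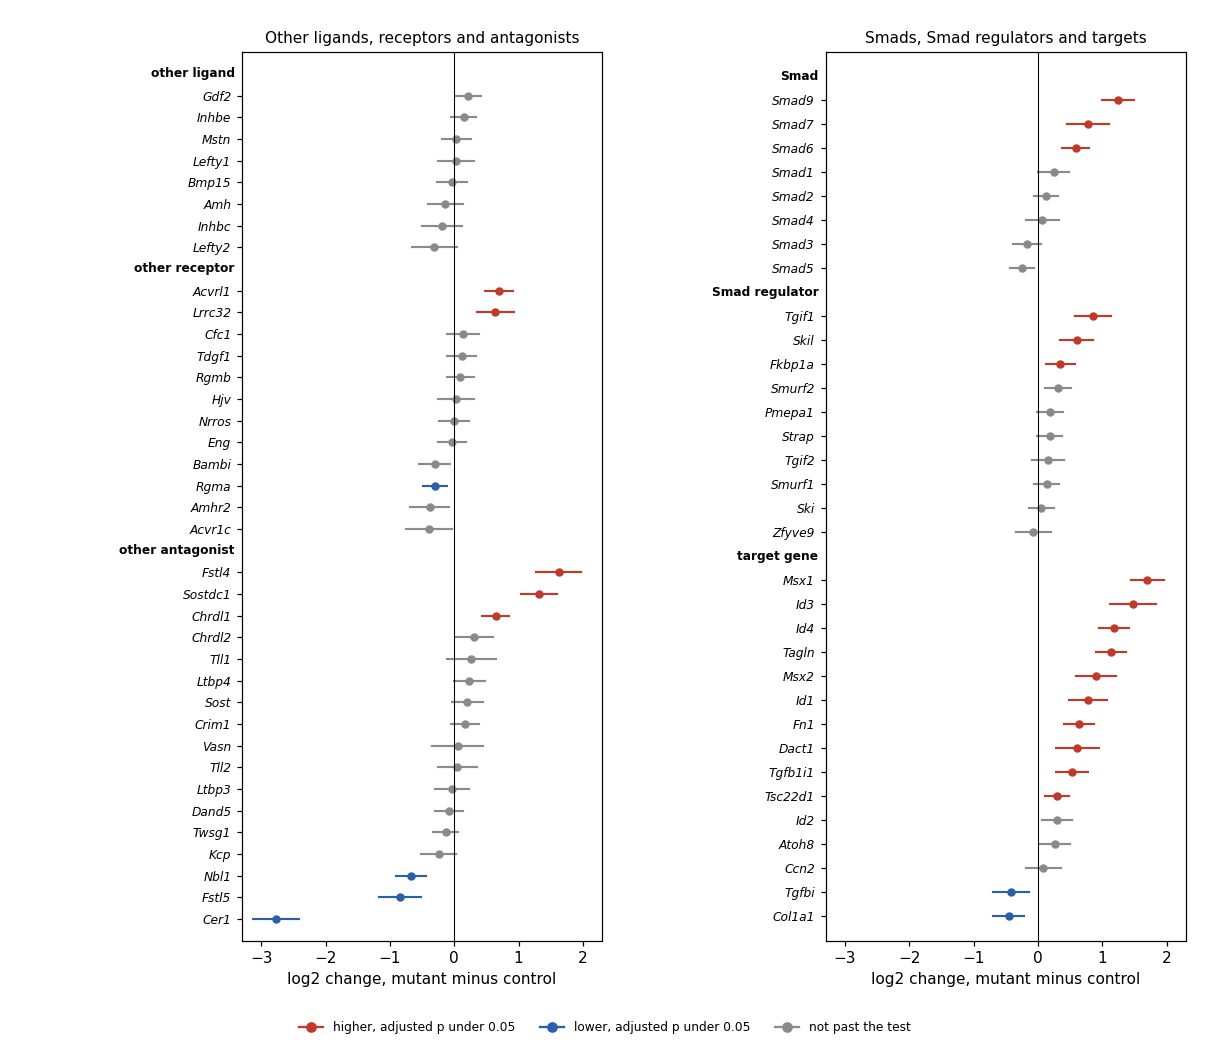
Log2 change (mutant minus control, horizontal axis) of 70 further genes of the pathway, with other ligands, receptors and antagonists at the left and Smads, Smad regulators and target genes at the right. Points are changes with 95% confidence intervals from limma (3 pools per genotype), red for the 21 genes called higher, blue for the 6 called lower and grey for the 43 not past the test; Cer1 at -2.77 stands alone at the far left, and 10 of 15 target genes are red.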

How the data were processed

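For each of 6 samples RNA of 3 E13.5 pancreata was pooled and hybridized to an Affymetrix Mouse Gene 1.0 ST array, as the methods state. Labels gave the genotype and replicate. The values the authors deposited are on the log2 scale, 1 per transcript cluster (35556 rows, array medians 6.37 to 6.47). Background correction, summarization, normalization and genome build were not given in the sources used here, and no detection calls were used. The number of arrays limits the precision. Rows with 1 gene symbol in the platform annotation (21789; 1621 had several and 12146 none) were used, and the row with the highest mean stood for a gene with more than 1. Entrez identifiers of 21698 rows matched RefSeq genes (GRCm38.p6), with 0 symbols changed.

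Mutant and control pools were compared with limma 3.58.1 in R 4.3.3 (lmFit, eBayes, no covariate, no filter on dim genes) over 19938 genes, with Benjamini-Hochberg adjustment at 0.05, after the step had been tested on simulated data. An exact permutation test of 3 pools against 3 gives at best p = 0.1. A limma p-value sets a gene's change against its spread between pools, after that spread is drawn towards the one typical of all genes tested. Of the 43 genes, 18 lie at or below the median level of all genes, 8 of them called. Control means of the called Inhba, Inhbb, Bmp3, Bmpr1b, Fst and Bmper lay below every array median (6.37 to 6.47). So did the mutant means of Bmp8b and Bmper. Expression of these genes in those pools was not tested.

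The genes, the lists of markers and of further pathway genes and the tests were chosen with earlier results of these data known. Array values were to be given for every called gene of the superfamily and, for each role, for the gene with the highest mean or, where none passed, the smallest p, with ranges and counts for the others. Of each further list up to 4 called genes with the largest change were named, and all Smads. Values of Bmp2, Tgfbr3 and a few others are given beside these, and genes outside the rule were named after their values were seen. Alternatives were a replicate block, each array left out, centring on medians or on 13 housekeeping genes, quantile normalization, filters at the median or lower quartile of level, the mean of a gene's rows, all rows in the test, a trended and robust prior, array weights and other thresholds. Promoter windows came from RefSeq, counted upstream of the annotated start only. Python 3.11.15, pandas 2.3.3 and matplotlib 3.10.9 were used for tables and figures.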

Additional observations from a re-analysis of the deposited data

How the results depend on the processing

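Across 18 alternatives, 16 of the 20 called genes of the superfamily kept their call wherever they were held, while Gdf10, Inha, Fstl1 and Bmper did not. No called gene changed direction, but most alternatives could not reverse one. The block, the filters, the mean of rows, all rows, the prior and the thresholds leave each change as it is. Where pools do not overlap, leaving out or weighting arrays cannot reverse it either, so only centring and quantile normalization could. The 15 genes called higher became 8 when only the 25 genes above the median level were tested. The 5 called lower became 8 with array weights and 8 at an unadjusted p under 0.05, Gdf11, Tgfbr1 and Tgfbr3 being added in both. Leaving out 1 array gave 13 to 15 higher and 4 to 6 lower. Of the further pathway genes 21 were higher, and 18 to 20 with 1 array left out. The 6 called lower became 3 with all rows in the test, 11 with array weights, 10 at an unadjusted p under 0.05 and 3 at an adjusted p under 0.01, and 3 to 5 with 1 array left out (3 without control replicate 3 or mutant replicate 3). The filter at the median took 8 called genes of the superfamily out of the test, and the other thresholds were applied to the same fit. The cause of the other shifts was not tested. Of the 23 genes not past the test, 12 changed sign in at least 1 alternative.

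With the replicate number as a block, 14 of the superfamily's genes were higher and 5 lower (Bmper was lost, adjusted p = 0.0786), and 19 further pathway genes were higher and 5 lower. Deviations from the group means correlated at 0.01, -0.15 and -0.05 between arrays of the same number, so the numbers were not taken to pair the pools, and not every array correlated best with its own number.

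The median change of all genes was 0.03, and 0.07, -0.01 and 0.02 after centring on medians, on housekeeping genes and quantile normalization.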
